A study of Mus musculus with 32 samples.

Results

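The comparison described here asked what loss of Nfe2l1 alone did to the transcriptome of mouse primary white adipocytes that had not been loaded with cholesterol. It compares 8 of the 32 libraries of the study, chosen by their labels: 4 libraries of cells given an siRNA against Nfe2l1 (siNfe2l1) and 4 of cells given a scrambled siRNA (scramble), all under control treatment. The cells were wild type, were grown from subcutaneous adipose tissue, and were measured by sequencing of poly(A) RNA. Per the labels, the replicates within each group are biological. How many animals they came from, how long silencing lasted, whether the control treatment held the sterol carrier, and the sequences of the siRNAs are not given in the sources used here. Of the other 24 libraries, 16 are described for the same siRNA in other settings: scramble and siNfe2l1 cells given cholesterol (400 µM, carried by methyl-β-cyclodextrin) over 6 h, and cells with siAtf3 or with siNfe2l1 plus siAtf3 under control treatment. All 32 libraries entered the fit, so the other 24 also bear on the filtering, the scaling and the spread behind each p-value.

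NFE2L1 (also called NRF1 or TCF11) is a transcription factor of the cap'n'collar family that is held in the membrane of the endoplasmic reticulum. The ATPase p97 pulls it out, the glycanase NGLY1 removes its sugars and the protease DDI2 cuts it, after which it enters the nucleus, pairs with small MAF proteins and binds antioxidant response elements. It is best known for raising the genes of the proteasome, the particle that degrades ubiquitin-tagged proteins, when degradation falls behind. In brown fat it is known to keep proteasome activity up during cold, and its relative NFE2L2 shares the DNA element but is held in check by KEAP1.

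Total counts of the 8 libraries lay between 24263362 and 26496165, and scaling factors between 0.981 and 0.998. On a principal component plot of the 8 libraries the largest component, with 19.1% of the variance, separated siNfe2l1 (5.81 to 11.3) from scramble (-13.57 to -5.62). The next component (16.5%) set siNfe2l1 library 4 apart (-19.79, against -4.90 to 6.79 for the other libraries). The siNfe2l1 libraries also differed from each other more than the scramble libraries did, with a chi-square per degree of freedom of 7.79 to 14.6 for pairs of siNfe2l1 libraries and 2.76 to 6.49 for pairs of scramble libraries. Levels below are CPM, read counts scaled to a common library size. A gene is called at an adjusted p under 0.05 in the quasi-likelihood test of edgeR with Benjamini-Hochberg adjustment over the 16984 genes tested. Log2 fold changes are siNfe2l1 over scramble, ± standard error (SE).

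Nfe2l1 itself (ENSMUSG00000038615, GRCm39 chromosome 11, 96708240 to 96720794, minus strand) stood at 478.7, 489.1, 492.9 and 486.5 CPM in scramble libraries 1 to 4. In siNfe2l1 libraries 1 to 4 it stood at 79.5, 80.2, 61.5 and 73.8 CPM. Silencing was therefore alike in the 4 libraries, with 15.2% of the transcript left (log2 fold change -2.72 ± 0.07, adjusted p = 1.01e-25). The remaining members of its family did not pass the test: Nfe2l2 had a log2 fold change of -0.01 (adjusted p = 0.968), with levels of 99.7 to 102.2 CPM in scramble and 96.9 to 107.2 CPM in siNfe2l1 libraries. Of 10 tested genes for cap'n'collar factors, small MAF proteins, BACH repressors and KEAP1, Nfe2l1 was the 1 called gene.

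In all, 1018 of 16984 genes were called, 531 higher (3.13% of all tested) and 487 lower (2.87%), against a median log2 fold change of 0.005 over all genes. Most differences were small. Only 158 called genes differed by more than 1.5-fold and 25 by more than 2-fold. The smallest adjusted p on the lower side were those of Nfe2l1 and of the methyltransferase gene Prmt5.

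**Figure D1:**
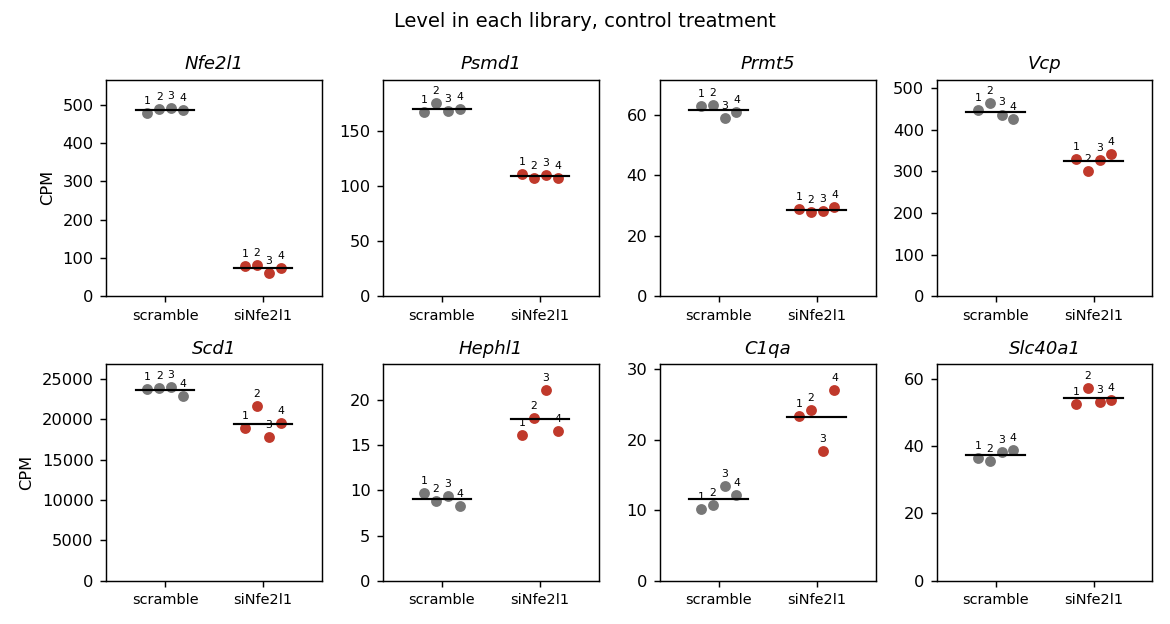
Level of 8 genes in each library under control treatment, in CPM on axes that start at 0, with scramble in grey and siNfe2l1 in red, library numbers beside the points and group means as lines. The groups do not overlap for any of the 8 genes, and siNfe2l1 library 3 holds the least C1qa (18.4 CPM) of its group.

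The antioxidant response element core TGACNNNGC (N is any base) was looked for on both strands of RefSeq promoter windows, from 250 bases before to 50 after a gene's start (GRCm38.p6). It was chosen because NFE2L1 with a small MAF partner binds this core, and the promoters shown are those of proteasome and p97 genes whose match and flanks end before the start, so that no transcribed base is printed. The match stands in capitals and each sequence reads 5′ to 3′ along the gene. Psmb5, a catalytic subunit of the core particle, holds it 47 bases before its start (chr14:54618004-54618072, minus strand), and Vcp, which encodes p97, 114 bases before (chr4:43000583-43000651, minus strand). The ubiquitin receptor gene Adrm1 holds it 162 bases before its start (chr2:180171396-180171464, plus strand). For the ATPase gene Psmc6 (chr14:45329574-45329635, plus strand) and the lid gene Psmd12 (chr11:107479278-107479319, plus strand) the match lies 227 and 247 bases before the start, on the opposite strand, so that the capitals show its reverse complement.
Psmb5: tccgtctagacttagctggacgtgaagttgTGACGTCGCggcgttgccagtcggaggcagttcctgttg
Vcp: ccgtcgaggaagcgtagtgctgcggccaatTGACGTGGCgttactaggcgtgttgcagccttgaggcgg
Adrm1: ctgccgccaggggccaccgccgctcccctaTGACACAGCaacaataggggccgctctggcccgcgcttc
Psmc6: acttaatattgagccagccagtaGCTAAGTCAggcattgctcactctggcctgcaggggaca
Psmd12: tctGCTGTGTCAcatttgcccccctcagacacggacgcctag

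Of the 33 constitutive proteasome genes 27 had a promoter in the table, and 6 of these (22.2%) held the core. Psmb6 and Sem1 are the others, with matches that start 9 bases before and 20 bases after the start, and both were not called. Among p97 and its cofactors it was 4 of 11 (36.4%). The share was 16.9% of the called lower genes with a promoter, 14.7% of the called higher genes, 16.9% of the genes tested and not called, and 14.0% of all promoters in the table. The 6 proteasome genes with a match had a median log2 fold change of -0.36 (-0.41 to -0.12), and the 21 without one -0.42 (-0.64 to -0.05). A match describes letters in a short window and is not a measured binding site.

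Proteasome genes fell together. The constitutive 26S proteasome joins a 20S core, a barrel of alpha and beta rings that cuts proteins, to a 19S cap, whose base unfolds and whose lid removes ubiquitin. Of its 33 subunit genes 30 were called lower, none higher, and all 33 had a negative log2 fold change, with a median of -0.41 (percent called lower over all genes 2.87). Their summed level was 4204 to 4250 CPM in the scramble libraries and 3085 to 3440 CPM in the siNfe2l1 libraries, 0.756 of the scramble mean. The groups did not overlap, and the highest value with siNfe2l1 was that of library 4. That library held the highest siNfe2l1 level for 30 of the 33 genes, and without it 31 genes were called, with a median of -0.43. Nfe2l1 itself was at 73.8 CPM in library 4, inside the range of the other 3.

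**Figure D2:**
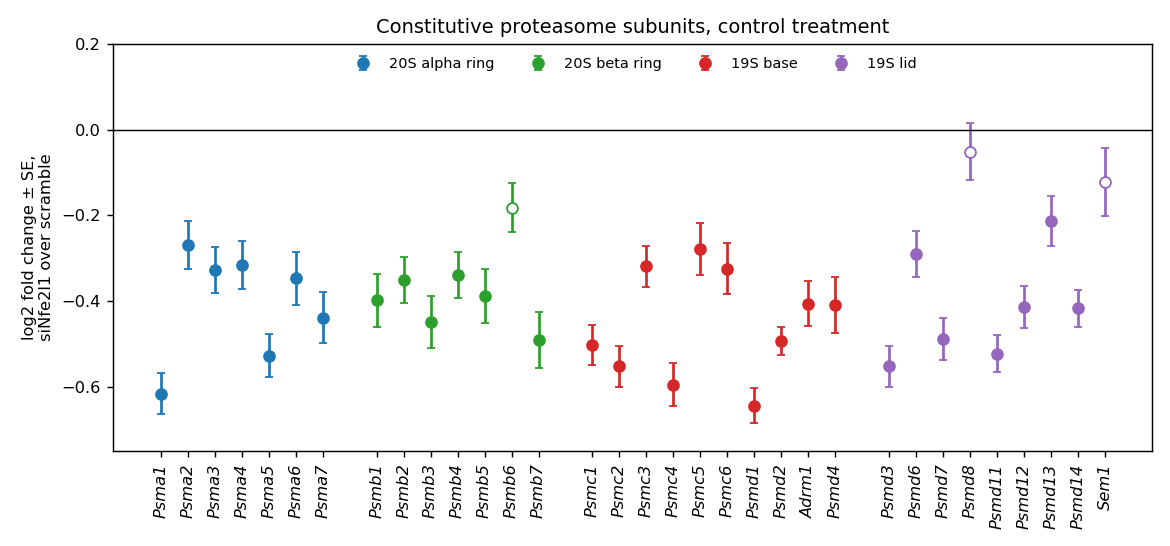
Log2 fold change ± SE (siNfe2l1 over scramble, control treatment) of 33 constitutive proteasome subunit genes, grouped by particle; filled points were called and open points were not. All 33 lie below 0, and Psmb6, Psmd8 and Sem1 are the 3 open points.

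The base carried the largest decreases. Psmd1, the largest scaffold subunit of the cap (ENSMUSG00000026229, GRCm39 chromosome 1, 85992109 to 86066873, plus strand), stood at 167.2, 175.7, 168.8 and 170.6 CPM with scramble and at 111.4, 107.3, 109.9 and 107.9 CPM with siNfe2l1. The 2 groups lay far apart, and the fall was larger than in any other subunit (-0.64 ± 0.04, adjusted p = 6.20e-14). All 10 base genes were called lower, with a median of -0.45. Among the ATPases that unfold substrates, Psmc4 fell from 127.3 ± 2.84 to 84.3 ± 5.74 CPM (SD, n = 4; -0.60), Psmc2 by 0.55 and Psmc1 by 0.50 on the log2 scale. Psmc5 had the smallest decrease of the base, -0.28 (adjusted p = 0.0027). The second scaffold gene Psmd2, at 329.7 to 344.3 CPM with scramble and 231.4 to 249.2 CPM with siNfe2l1, fell by 0.49. The ubiquitin receptor genes Adrm1 and Psmd4 each fell by 0.41.

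In the core particle the 7 alpha ring genes were all called lower (median -0.35), as were 6 of the 7 beta ring genes (median -0.39). Psma1, a structural alpha subunit, went from 205.7, 203.1, 201.7 and 207.0 CPM to 128.6, 133.2, 123.3 and 148.2 CPM. Its library 4 was the highest of the siNfe2l1 group but still far below scramble (-0.62 ± 0.05, adjusted p = 2.44e-11). Psma5 fell by 0.53 and Psma7 by 0.44, while Psma2 fell by 0.27. A processed pseudogene close to Psma5, Psma5-ps, was also called lower (-0.47, adjusted p = 0.0018), and reads could have been split between the pair. Of the catalytic subunit genes, Psmb7 (trypsin-like activity) fell by 0.49 and Psmb5 (chymotrypsin-like activity) by 0.39. Psmb7 overlaps Nek6 on the opposite strand, a gene of 96.85 CPM with scramble that was also called lower (-0.19, adjusted p = 0.0146). Without known strandedness their reads cannot be told apart. Psmb5 was at 119.6 to 129.3 CPM with scramble and at 91.5, 89.3, 87.8 and 108.4 CPM with siNfe2l1. The third catalytic gene, Psmb6 (caspase-like activity), had -0.18 and an adjusted p of 0.0511. Its groups did not overlap (96.3 to 100.4 against 82.8 to 95.4 CPM), and without siNfe2l1 library 4 its adjusted p was 0.0192. Under 6 other settings the test also put Psmb6 past the threshold.

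The lid was the least even part, with 7 of 9 genes called lower and a median of -0.41. Psmd3 fell by 0.55, Psmd11 by 0.52, Psmd7 by 0.49, and the deubiquitinase gene Psmd14, which frees ubiquitin from substrates, by 0.42. Psmd6 fell by 0.29 and Psmd12 by 0.41. Psmd13 fell by 0.21 (adjusted p = 0.0184), and its call was lost without any 1 of 5 libraries, with an adjusted p of up to 0.075 (without siNfe2l1 library 1). Psmd8 had -0.05 (adjusted p = 0.777), with 185.2 to 196.4 CPM in scramble and 172.1 to 202.8 CPM in siNfe2l1 libraries, which overlap. Sem1, the smallest subunit, had -0.12 (adjusted p = 0.472). Per length, the subunit genes spanned 17.9 (Psmd11) to 137 CPM per kb (Psmb5) with scramble and 12.4 to 105 CPM per kb, for the same genes, with siNfe2l1. The order of high and low subunits at these ends was thus kept while the levels dropped.

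Lists of genes that act on or with the proteasome had some members lower and others not called, and whether they differ from the subunits was not tested. Of 9 tested assembly chaperone genes only Pomp, which helps to close the core, was called lower (92.5 to 95.5 against 67.3 to 76.9 CPM, -0.40 ± 0.06, adjusted p = 4.08e-05). The 4 Psmg chaperone genes lay between -0.13 and 0.09 and were not called. Of 3 tested immunoproteasome genes, whose products replace the catalytic subunits in immune cells or after interferon, Psmb8 was higher (0.23, adjusted p = 0.0178). Its call was lost without siNfe2l1 library 1 (adjusted p = 0.0533), and the other 2, Psmb9 and Psmb10, were at 0.10 and -0.11. Of 7 activators and inhibitors of the particle 3 were called lower (42.9%, against 2.87% over all genes). They were Psme4 (-0.23), the adaptor gene Ecpas (-0.23, adjusted p = 0.00254) and the inhibitor gene Psmf1 (-0.16). Psme4 was lost without siNfe2l1 library 4 (adjusted p = 0.0504), and Psmf1 without any 1 of 7 libraries (up to 0.209, without scramble library 4). Among 11 tested proteasome-bound ubiquitin enzymes and shuttle factors 3 were called lower (27.3%), and all 11 had a negative log2 fold change (median -0.17). Usp14, a deubiquitinase that docks on the base, fell from 68.8 to 74.2 CPM to 56.4 to 58.5 CPM (-0.30 ± 0.05). The shuttle gene Rad23b (-0.16) was lost without any 1 of 4 libraries, with an adjusted p of up to 0.0832 (without scramble library 4).

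The p97 segregase, which pulls ubiquitinated proteins out of membranes and complexes and which also releases NFE2L1, fell with 6 of its partners. Of 13 tested genes 7 were called lower, against 2.87% over all genes, and none higher (median -0.20). Vcp (ENSMUSG00000028452, GRCm39 chromosome 4, 42979963 to 43000507, minus strand) stood at 447.8, 464.6, 436.5 and 424.8 CPM with scramble and at 330.3, 300.4, 326.3 and 342.6 CPM with siNfe2l1. The groups were clearly separate (-0.45 ± 0.05, adjusted p = 7.12e-08). A processed pseudogene of Vcp, Vcp-rs, was also called lower (94.1 to 59.4 CPM, -0.66), and its reads may belong to either gene. The ubiquitin-binding cofactor gene Nploc4 fell from 129.9 ± 5.52 to 91.9 ± 3.56 CPM (-0.50 ± 0.04, adjusted p = 5.09e-11), and its partner Ufd1 by 0.21. Nsfl1c, Plaa, Ubxn4 and Faf1 fell by 0.29, 0.28, 0.25 and 0.20. The 6 uncalled genes lay between -0.14 (Ubxn1) and 0.08 (Ubxn6). The count stayed at 7 under every alternative run.

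Genes that act on NFE2L1 protein were lower or not called. Of 13 tested, Vcp among them, 3 were called lower (23.1%, against 2.87% over all genes). Ngly1, the glycanase, was at 43.9, 44.3, 42.0 and 45.2 CPM with scramble and at 37.6, 35.4, 37.5 and 37.3 CPM with siNfe2l1. Its groups did not overlap (-0.25 ± 0.05, adjusted p = 0.00317). Stub1, a ubiquitin ligase of chaperone clients, fell by 0.34 (adjusted p = 0.00152), whereas the protease gene Ddi2 had -0.17 (adjusted p = 0.153; 0.0417 when only the 8 libraries were fitted). The ligase genes Syvn1, Fbxw7 and Btrc were at 0.02, -0.06 and 0.04 and were not called. Of 18 tested ubiquitin genes and conjugating enzymes only Ube2s was called lower (5.6%, against 2.87% over all genes). It went from 66.5 to 73.2 CPM to 49.2 to 58.5 CPM (-0.42 ± 0.06). The polyubiquitin gene Ubb was at 0.03 and was not called.

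**Figure D3:**
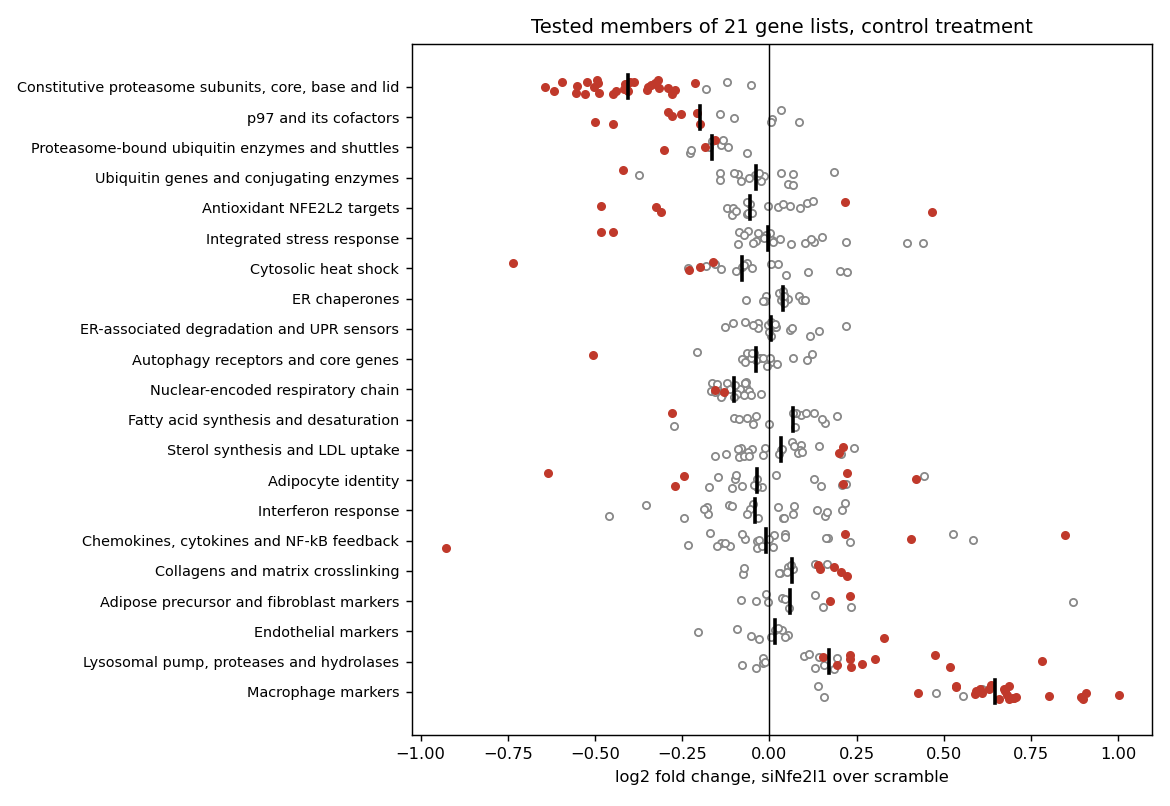
Log2 fold change (siNfe2l1 over scramble, control treatment) of the tested members of 21 gene lists, with called genes in red, uncalled genes open and list medians as black bars; vertical scatter has no meaning. Proteasome subunits (median -0.41) and macrophage markers (0.65) lie apart from the other lists shown. The markers of T, B, natural killer, neutrophil and mast cells (median 0.46) are not shown.

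Antioxidant genes, the classical targets of NFE2L2, did not share a direction, with a median of -0.06. Of 21 tested 2 were called higher (9.5%) and 3 lower (14.3%), against 3.13% and 2.87% over all genes. Nqo1, a quinone reductase, rose from 16.7 to 19.2 CPM to 21.9 to 26.5 CPM (0.47 ± 0.07, adjusted p = 1.82e-05). The biliverdin reductase gene Blvrb fell by 0.32, and the glutathione reductase gene Gsr by 0.31 (adjusted p = 0.00227). Slc7a11, the cystine importer, fell by 0.48 (adjusted p = 0.0166), but not without any 1 of 3 libraries (up to 0.0904, without siNfe2l1 library 4). Ephx1, an epoxide hydrolase, rose by 0.22 and was lost without siNfe2l1 library 3 (adjusted p = 0.0796). Heme oxygenase, Hmox1, overlapped between the groups (397.5 to 490.5 against 408.7 to 493.2 CPM, log2 fold change -0.0044, adjusted p = 0.988).

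Iron genes held 4 called members of 18 tested, 3 higher (16.7%, against 3.13% over all genes) and 1 lower. Hephl1, a copper ferroxidase related to hephaestin (ENSMUSG00000031936, GRCm39 chromosome 9, 14963137 to 15023404, minus strand), stood at 9.66, 8.84, 9.34 and 8.29 CPM with scramble and at 16.06, 18.02, 21.08 and 16.51 CPM with siNfe2l1. The groups did not overlap, and the difference was 1.98-fold (0.99 ± 0.12, adjusted p = 7.06e-07). Slc40a1, the iron exporter ferroportin, rose from 35.5 to 38.9 CPM to 52.6 to 57.3 CPM (0.54 ± 0.06, adjusted p = 4.78e-08). Tfrc, the transferrin receptor that takes iron up, fell from 173.1 ± 6.73 to 123.2 ± 6.85 CPM (-0.49 ± 0.09). The ferroxidase gene Cp rose by 0.17 (adjusted p = 0.00508, and 0.0639 without a filter on low counts). The ferritin genes Fth1 and Ftl1 (0.03 and 0.15) and the lipid peroxidase gene Gpx4 (-0.10) were not called, nor was any of 6 metallothionein and zinc transporter genes.

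Apart from Nfe2l1, the lowest log2 fold changes were mostly outside the proteasome, among called protein-coding genes whose groups did not overlap and whose mean log2 CPM reached 2. Ccdc152, a gene without a well-known function, led with 11.4 ± 0.58 against 4.97 ± 0.46 CPM (-1.19 ± 0.10, adjusted p = 5.09e-11). It overlaps Selenop on the opposite strand, a gene of 974.1 CPM with scramble that also fell (-0.23), and without known strandedness their reads cannot be told apart. Prmt5, an arginine methyltransferase of splicing proteins and histones (ENSMUSG00000023110, GRCm39 chromosome 14, 54744644 to 54754982, minus strand), stood at 62.9, 63.2, 58.8 and 60.8 CPM with scramble. With siNfe2l1 it stood at 28.7, 27.9, 28.1 and 29.4 CPM, tight values that left 46.4% (-1.11 ± 0.04, adjusted p = 8.90e-22). Of 13 tested genes for methyltransferases and small ribonucleoprotein assembly Prmt5 was the 1 called, and its partner Wdr77 had -0.18.

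Nol3, an inhibitor of cell death, fell from 10.4 to 13.5 CPM to 4.71 to 7.16 CPM (-1.03 ± 0.12). Slc35g1, a transporter-like membrane protein gene, fell by 0.87. The small heat shock gene Hspb8, which works with BAG3 in clearing misfolded proteins, went from 125.4, 125.7, 130.2 and 128.3 CPM to 76.6, 74.0, 73.8 and 81.6 CPM (-0.74 ± 0.11, adjusted p = 3.15e-05). Tmem87a, a Golgi membrane protein gene, fell to 61.2% (-0.71 ± 0.05), Nrn1, encoding a neuritin anchored to the membrane, by 0.69, and Cnbp, a nucleic acid binding protein gene, from 309.4 ± 9.57 to 193.2 ± 5.78 CPM (-0.68 ± 0.06). The lack of overlap between the groups was part of how these genes were chosen; over all genes tested, 6.6% had siNfe2l1 values wholly below the scramble values.

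Several of these genes share a sequence in their transcripts. The 7-base word AAAGCGA, which came out of an earlier look at this same comparison and is therefore not independent of it, was counted in the 3′ UTRs of GENCODE M21 transcripts for protein-coding genes whose mean log2 CPM reached 2. It stood in 35 of 442 called lower genes (7.92%), in 3 of 450 called higher genes (0.67%) and in 241 of 9983 genes that were not called (2.41%). Median UTR lengths were 1255, 938 and 1263 bases. The sites of 3 of the lowest genes are shown with 10 bases on each side and the word in capitals; Prmt5 and Tmem87a hold 1 site, Nrn1 holds 2.
Prmt5: gtcaggagagAAAGCGAaggctgtgga
Tmem87a: gggtgggcagAAAGCGAgagaaactta
Nrn1, site at base 447 of its UTR: tcctaatgggAAAGCGAgagggaaaag
Nrn1, site at base 591 of its UTR: ctcctccagaAAAGCGAaaacacaaga

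The word was not found in the 3′ UTRs of Nfe2l1, Ccdc152, Ucp1, Nol3, Slc35g1, Hspb8 or Cnbp. Nor was it in those of Zim1 and Rpl7a, which are also among the 12 lowest genes. Whether it pairs with either siRNA was not tested, since their sequences are not given in the sources used here.

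Macrophage genes were higher with siNfe2l1. Of 28 tested markers 23 were called higher and none lower, all 28 had a positive log2 fold change and the median was 0.65 (percent called higher over all genes 3.13). The markers Cx3cr1 and Timd4 fell below the count filter. Summed over the 28 markers, the scramble libraries held 411.7, 459.4, 449.9 and 475.6 CPM and the siNfe2l1 libraries 754.2, 730.7, 578.8 and 771.3 CPM. Every siNfe2l1 value exceeded every scramble value, 1.58-fold in the mean, and library 3 was the lowest of its group in the sum and in 25 of the 28 markers. Without library 3, 23 markers were called and the median was 0.73. In bulk RNA more cells of a type and more RNA per cell cannot be told apart.

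C1qa, a complement subunit made by tissue macrophages (ENSMUSG00000036887, GRCm39 chromosome 4, 136623228 to 136626114, minus strand), stood at 10.1, 10.7, 13.4 and 12.1 CPM with scramble and at 23.3, 24.3, 18.4 and 27.0 CPM with siNfe2l1. That was 2.00-fold higher (1.00 ± 0.11, adjusted p = 1.06e-07). Its partners C1qb and C1qc rose by 0.90 and 0.70. The growth factor receptor gene Csf1r rose from 20.6 to 33.1 CPM in the mean (0.69), the scavenger receptor gene Cd68 from 30.9 to 36.8 CPM to 40.1 to 56.4 CPM (0.61), and the signalling adaptor gene Tyrobp by 0.80. The surface gene Adgre1 (F4/80) rose by 0.61, the mannose receptor gene Mrc1 by 0.59, the lipid receptor gene Trem2 by 0.59 and the lineage transcription factor gene Spi1 by 0.68. The 5 uncalled markers were Cd14 (0.16), Mertk (0.14), Cd163 (0.48), Aif1 (0.61) and Itgam (0.56, adjusted p = 0.0508).

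**Figure D4:**
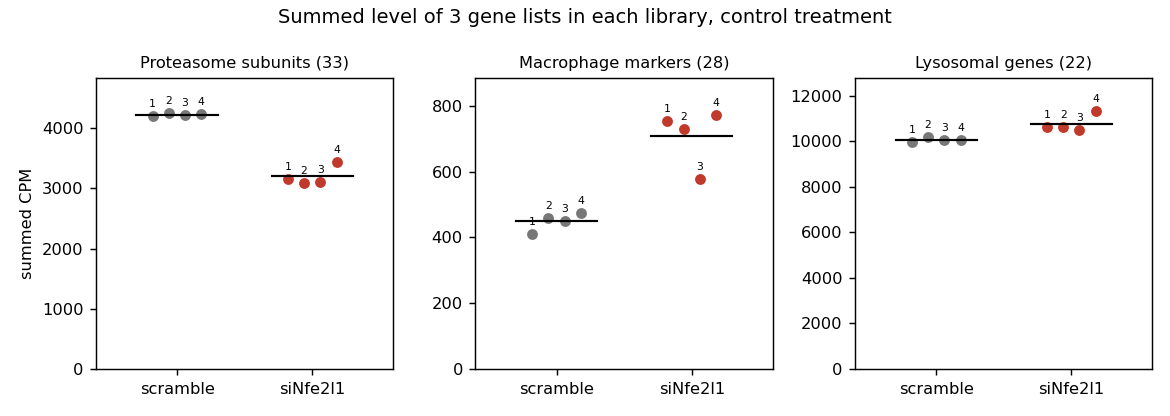
Summed CPM of 33 proteasome subunit genes, 28 macrophage markers and 22 lysosomal genes in each library, on axes that start at 0, with library numbers beside the points and group means as lines. Libraries of the groups do not overlap in any panel; siNfe2l1 library 4 is the highest of its group for the proteasome (3440) and library 3 the lowest for macrophage markers (578.8).

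The 12 highest called genes, chosen by the same rule as the lowest, hold C1qa, C1qb, Tyrobp and Ms4a7 of the macrophage list. The lysosomal protease gene Ctss rose 1.72-fold, from 45.6 to 54.8 CPM to 64.5 to 97.2 CPM (0.78 ± 0.11). Ms4a7, a surface protein gene of macrophages, and Wfdc17, which encodes a secreted protease inhibitor, both rose by 0.91. Slamf7, an immune receptor gene, rose by 0.87, the semaphorin gene Sema4d by 0.79, and the ubiquitin ligase gene Rnf128 by 0.77. Cd5l, secreted by macrophages, rose from 19.1 ± 2.97 to 37.0 ± 8.48 CPM (0.95 ± 0.18, adjusted p = 0.00146), with 24.4 CPM in library 3 and at least 40.1 CPM in the other 3. Hephl1 was the one of the 12 that is also on the iron list. Among the 10 genes with the smallest adjusted p on the higher side were also Lilrb4b (0.65), the metalloprotease gene Adam8 (0.62), the inhibitory receptor gene Sirpa (0.38) and Islr, a secreted repeat protein gene of stromal cells (0.39).

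Markers of the labelled cell type were high, and markers of stromal cells were present beside them. Per length, the 22 adipocyte genes had a median of 120 CPM per kb with scramble and 119 with siNfe2l1, whereas the macrophage markers had 3.63 and 5.70. Fibroblast and precursor markers had 40.0 and 43.8 CPM per kb, with Ly6a at 821 and 926, and endothelial markers 7.94 and 8.08. Smooth muscle markers had 1.95 and 2.31, with the actin gene Acta2 at 207 and 247 CPM per kb. Markers of T, B, natural killer, neutrophil and mast cells were near the floor: 6 of 16 passed the count filter, with medians of 0.434 and 0.494 CPM per kb, and none was called. Their median log2 fold change was nevertheless 0.46 (-0.23 to 0.80), with 1 of the 6 negative. None of 5 dendritic, 10 smooth muscle and 4 epithelial or Schwann cell markers was called. Endothelial markers had 1 called member of 11, Vwf (0.33), which was lost without any 1 of 5 libraries (adjusted p of up to 0.154, without siNfe2l1 library 2). Macrophage markers thus had the most called members among the lists of other cell types, and their part in the results on single genes below was not tested.

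Lysosomal genes rose in part: 10 of 22 tested were called higher, 45.5% against 3.13% over all genes, and none lower (median 0.17). Their summed level was 9952 to 10200 CPM with scramble and 10510 to 11330 CPM with siNfe2l1, beside the 1.58-fold difference of the macrophage markers. Among the siNfe2l1 libraries, library 3 was lowest for 11 of the 22 genes and library 4 highest for 11. Ctss and Gpnmb (216.2 to 237.6 against 275.5 to 348.2 CPM, 0.52) were lowest in library 3 of the siNfe2l1 group. The membrane protein gene Lamp1 was highest in libraries 3 and 4 of that group (811.1, 811.0, 875.3 and 862.7 CPM against 705.3 to 727.9; 0.23 ± 0.04). Ctsa rose by 0.27 but overlaps Pltp, which rose by 0.41, on the opposite strand. The proton pump genes Atp6v1a and Atp6v1h were at 0.16 and -0.08 and were not called. Of 13 LXR and cholesterol efflux genes 3 were called higher (23.1%, against 3.13% over all genes). They were Cd5l, the phospholipid transfer gene Pltp and Apoe (580.9 to 625.1 against 706.5 to 891.0 CPM, 0.36). Abca1 and Abcg1, the pumps that export cholesterol, were at 0.04 and 0.13 and were not called.

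Adipocyte identity genes went both ways, with 3 of 22 tested called higher and 3 lower, 13.6% each against 3.13% and 2.87% over all genes (median -0.04). Adipoq, which encodes adiponectin, was at 907.1 to 937.5 CPM with scramble and 882.9 to 1004 CPM with siNfe2l1 (0.02, adjusted p = 0.891). Dgat2, which makes triglyceride, rose from 190.9 to 217.1 CPM to 242.0 to 300.0 CPM (0.42 ± 0.06, adjusted p = 7.64e-06), and the insulin-responsive glucose transporter gene Slc2a4 by 0.21. Pck1, of glycerol synthesis, fell by 0.63 with overlapping groups (7.03 to 12.7 against 4.68 to 7.65 CPM), and its adjusted p went from 0.00446 to 0.0995 when only the 8 libraries were fitted. Fabp4, the fatty acid binding protein gene, and the glycerol channel gene Aqp7 fell by 0.27 and 0.25. Each of these calls was lost without any 1 of 5 libraries, with adjusted p of up to 0.119 (without siNfe2l1 library 3) and 0.0929 (without scramble library 4).

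Thermogenic genes had 2 called members of 15, both lower (13.3%, against 2.87% over all genes), and a median of -0.20. Ucp1, the uncoupling protein that makes heat in brown and beige fat, was rare at 5.18, 4.60, 5.32 and 5.44 CPM with scramble and fell to 2.68, 2.66, 1.66 and 2.59 CPM (-1.09 ± 0.18, adjusted p = 5.88e-05). The glycerol kinase gene Gk fell by 0.57, while Ppargc1a (-0.29), Cidea (-0.13) and Dio2 (-0.20) were not called. Among 17 genes of fatty acid synthesis and desaturation 1 was called: Scd1, the main desaturase, fell from 22870 to 24070 CPM to 17840 to 21720 CPM (-0.28 ± 0.05). Fasn, Acaca and Acly were at 0.09, -0.05 and -0.09 and were not called. Of 25 sterol synthesis and uptake genes 2 were called higher (8%, against 3.13% over all genes), Sc5d (0.21) and Dhcr7 (0.20). The call of Dhcr7 was lost without any 1 of 5 libraries (adjusted p of up to 0.176, without scramble library 4).

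Most genes of the stress lists stayed below the threshold, with the largest called share among cytosolic heat shock genes. None of 16 endoplasmic reticulum chaperone genes and none of 18 genes of ER-associated degradation and the unfolded protein response was called, with medians of 0.04 and 0.004. In the integrated stress response 2 of 24 were called lower (8.3%, against 2.87% over all genes). Both encode amino acid transporters, Slc7a11 and Slc7a5 (92.3 to 104.1 against 68.5 to 80.3 CPM, -0.45). Atf4 and Ddit3 had 0.06 and 0.39 without a call. Atf3, the target of the other siRNA, overlapped between the groups (24.01 to 29.15 against 25.4 to 34.7 CPM, 0.25 ± 0.29, adjusted p = 0.744). Of 19 cytosolic heat shock genes 4 were called lower (21.1%, against 2.87% over all genes), with Hspb8 far ahead of the collagen chaperone gene Serpinh1 (-0.23), Hspd1 (-0.20) and Hspa4 (-0.16). Hspd1 was lost without scramble library 4 (adjusted p = 0.0511), and Hspa4 without a filter on low counts (0.055). Among autophagy genes Gabarapl1 was the 1 called of 19 (132.6 to 160.0 against 95.4 to 109.8 CPM, -0.51, adjusted p = 0.0108). The receptor gene Sqstm1 had -0.21 and was not called.

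All 23 nuclear-encoded respiratory chain genes had a negative log2 fold change, but the median was only -0.10. Of these 2 were called, both lower (8.7%, against 2.87% over all genes): Ndufs1 (-0.16) and Atp5a1 (-0.13). Both calls were lost without single libraries, 4 and 5 of 8 in turn, with adjusted p of up to 0.0764 (without siNfe2l1 library 3) and 0.122 (without siNfe2l1 library 1). None of 13 mitochondrially encoded mRNAs was called (median -0.21), and the mitochondrial share of counts was 1.92% to 2.13% with scramble and 1.76% to 1.98% with siNfe2l1. In glycolysis Gpi1 alone of 15 genes was called (-0.27, adjusted p = 0.000848). None of 24 ribosomal protein genes on the list and none of 15 cell cycle genes was called. Rpl7a, a ribosomal protein gene outside that list, was called lower (69.6 to 122.3 against 52.2 to 60.5 CPM, -0.71 ± 0.20, adjusted p = 0.0341).

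Inflammatory genes showed no common direction, with a median of -0.01. Of 26 chemokine, cytokine and NF-kB feedback genes 3 were called higher (11.5%) and 1 lower (3.8%), against 3.13% and 2.87% over all genes. Csf1, the growth factor of macrophages, rose from 1013 to 1047 CPM to 1127 to 1332 CPM (0.22 ± 0.05, adjusted p = 0.00295). The chemokine gene Ccl8 (0.41) and the cytokine gene Tnf (0.85, below 1 CPM in every library) were higher too, and were lost without any 1 of 3 and 6 libraries. Their highest adjusted p were 0.0622 (without scramble library 2) and 0.143 (without scramble library 4). Cxcl10, a chemokine induced by interferon, was lower (33.6, 42.5, 37.0 and 57.9 against 34.2, 9.35, 24.5 and 21.9 CPM, -0.93 ± 0.23, adjusted p = 0.0115). Its groups overlap, and the call was lost without scramble library 4 (adjusted p = 0.0752) and when only the 8 libraries were fitted (0.228). Ccl2 and Il6 overlapped between the groups (-0.11 and -0.14, adjusted p = 0.847 for both). None of 22 interferon response genes and none of 16 immediate early genes was called.

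Of 16 collagen and matrix genes 5 were called higher (31.2%, against 3.13% over all genes), at small sizes. Col1a2 rose from 5573 to 5856 CPM to 6343 to 7071 CPM (0.22 ± 0.04), and Col1a1 by 0.21, the latter lost without any 1 of 3 libraries (adjusted p of up to 0.0764, without siNfe2l1 library 3). Among 13 fibroblast and precursor markers 2 were called higher (15.4%, against 3.13% over all genes), Cd248 (0.23) and Ly6a (0.17). The call of Ly6a was lost without any 1 of 3 libraries (up to 0.102, without scramble library 3). Pdgfra and Dcn were at -0.0027 and 0.04. Of 19 p53 and cell death genes 3 were called higher (15.8%) and 1 lower (5.3%), against 3.13% and 2.87% over all genes. Trp53inp1 (68.3 to 73.4 against 74.5 to 105.9 CPM, 0.37), Bcl2l1 (0.22) and Bax (0.22) rose and Nol3 fell, and Cdkn1a (0.12) and Mdm2 (-0.07) were not called. The call of Bax was lost without any 1 of 3 libraries (up to 0.101, without scramble library 1).

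The same siRNA was also given in cholesterol and on top of siAtf3, in pairs of groups that share no library with the pair above or with each other. In cholesterol, siNfe2l1 left Nfe2l1 at 120.0 ± 17.4 against 814.1 ± 43.3 CPM (-2.76), and 1923 genes were called higher (11.3%) and 1459 lower (8.59%). On top of siAtf3 it left 114.0 ± 1.91 against 479.6 ± 8.86 CPM (-2.07), with 630 genes higher (3.71%) and 330 lower (1.94%). Scaling by library totals alone moved these splits, to 2615 higher and 992 lower in cholesterol and 452 higher and 675 lower on top of siAtf3. Of the 531 genes called higher without cholesterol 303 were also called higher with it (57.1% of the 531 and 15.8% of the 1923), and of the 487 lower genes 334 (68.6% and 22.9%). With siAtf3 it was 131 (24.7%, and 20.8% of the 630) and 126 (25.9%, and 38.2% of the 330). In cholesterol 0 higher and 1 lower gene were called in the opposite direction, and with siAtf3 5 and 16. These shares move with the number of calls in the other pair. The 3382 calls in cholesterol became 645 with only the groups compared and 2153 without siNfe2l1 cholesterol library 3, and the 960 on top of siAtf3 became 2186 with only the groups compared and 559 without siAtf3 library 2.

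Called in all 3 settings were 95 genes higher and 111 lower, of 16984 tested. The 111 hold 29 of the 33 proteasome genes and the 95 hold 12 macrophage markers. The proteasome median was -0.41, -0.45 and -0.33 in control, cholesterol and siAtf3 cells, with 30, 32 and 30 of 33 genes called lower. Over all genes 2.87%, 8.59% and 1.94% were called lower in these settings. Psma1 had -0.62, -0.63 and -0.60, and Psmd1 -0.64, -0.57 and -0.45. The p97 list had 7, 9 and 7 called genes of 13, with Vcp at -0.45, -0.49 and -0.42. Macrophage markers had medians of 0.65, 0.92 and 0.43, with 23, 26 and 12 of 28 called higher, against 3.13%, 11.3% and 3.71% over all genes. Prmt5 was at -1.11, -0.91 and -0.79, Nol3 at -1.03, -1.14 and -0.65, Hspb8 at -0.74, -0.64 and -0.53, and Hephl1 at 0.99, 1.01 and 0.84.

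**Figure D5:**
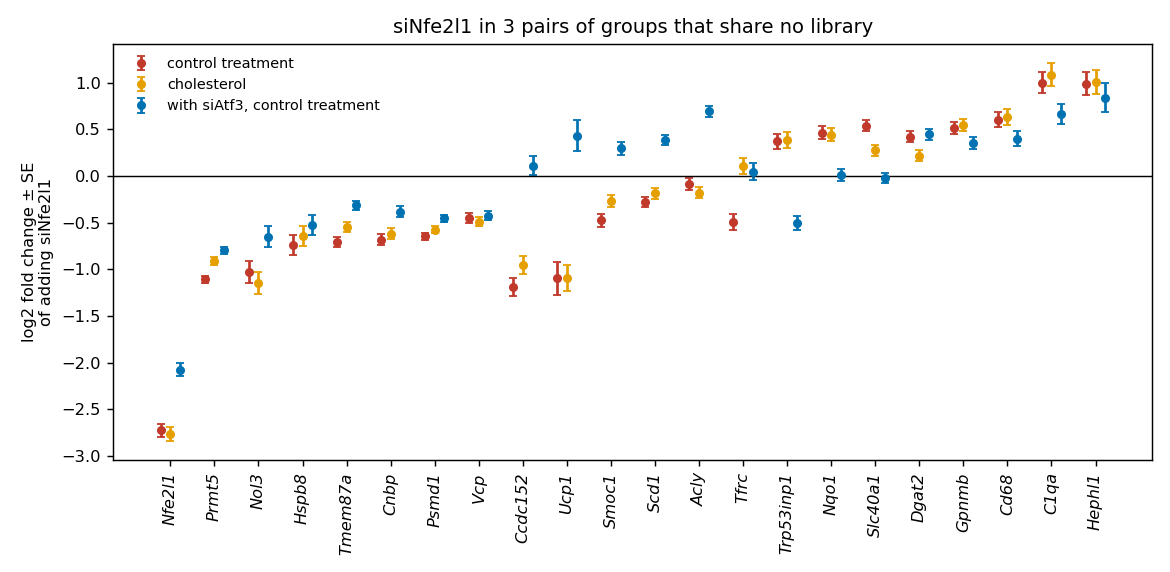
Log2 fold change ± SE of adding siNfe2l1 for 22 genes under control treatment (red), in cholesterol (orange) and on top of siAtf3 under control treatment (blue); the 3 pairs of groups share no library. The values lie close together for Vcp (-0.45, -0.49 and -0.42). The siAtf3 value has the opposite sign to the control value for Ccdc152, Ucp1, Smoc1, Scd1, Acly, Tfrc, Trp53inp1 and Slc40a1.

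Whether the effect of siNfe2l1 differed between settings was tested as an interaction. With cholesterol 42 genes passed (0.247%), led by Egr3 and Egr2, immediate early transcription factor genes. They had -0.31 and -0.14 without cholesterol, uncalled, and 0.79 and 0.62 with it (adjusted p of the difference 0.000279 for both). Tfrc fell without cholesterol (-0.49) and was at 0.11 with it (adjusted p of the difference 0.035). The number of such genes depended strongly on the libraries, from 2 when scramble library 4 or siNfe2l1 library 2 or 4 of the control treatment was left out to 1337 without siNfe2l1 cholesterol library 1. None of the 33 proteasome genes passed this interaction.

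With siAtf3 328 genes passed the interaction (1.93%), 232 with a positive and 96 with a negative difference (154 and 175 with scaling by library totals alone). Nfe2l1 was 1 of them, since less of its fall was seen on top of siAtf3 (difference 0.65 ± 0.10, adjusted p = 7.14e-05). Scd1 fell without siAtf3 (-0.28) and rose on top of it (0.39, from 15650 to 20500 CPM; adjusted p of the difference 2.02e-06). The matrix gene Smoc1 did likewise (-0.48 and 0.30), and Acly, of fatty acid synthesis, had -0.09 and 0.69. Of the 17 genes of fatty acid synthesis 12 were called higher on top of siAtf3 (3.71% over all genes) and none lower. These calls are against siAtf3 alone, where Scd1 and Acly stood at 15650 and 430.8 CPM, below scramble (23650 and 1164 CPM). With both siRNAs they stood at 20500 and 696.7 CPM, also below scramble. Trp53inp1 rose without siAtf3 (0.37) and fell on top of it (-0.50). Ccdc152 and Ucp1, which fell by 1.19 and 1.09, had 0.11 and 0.43 on top of siAtf3 and were not called there. Ccdc152 was at 4.01 CPM with siAtf3 alone, below its level with siNfe2l1. Ucp1 and Smoc1 stood at 3.3 and 56.4 CPM with siAtf3 alone, also below scramble (5.1 and 98.8 CPM). Slc40a1 (0.54 and -0.02) and Nqo1 (0.47 and 0.01) also passed the interaction. Of the 33 proteasome genes Psmd3 alone passed it (-0.55 and -0.24, adjusted p of the difference 0.00602).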

How the data were processed

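The authors deposited raw read counts per gene for 32 poly(A) RNA libraries, with gene positions on GRCm39. Per the submitters' processing notes, fastp, HISAT2 2.0.5 and featureCounts 1.5.0-p3 were used. Whether counting used strand, and how reads matching several places were treated, is not given in the sources used here. All columns were matched to labelled samples. Counts were filtered with filterByExpr (minimum count 10, minimum total 15), which kept 16984 of 56748 genes, and scaled by TMM. All 8 groups of 4 libraries were fitted together in edgeR 4.0.16 (R 4.3.3) with the robust quasi-likelihood test, on 24 residual degrees of freedom, and p-values were adjusted by Benjamini-Hochberg over all genes tested. A fit of the 8 libraries alone was tested on simulated data, where the share of false calls lay above the nominal 0.05. Values are CPM on TMM-scaled library sizes; per length means divided by the gene length in kb. The labels call the replicates biological without naming animals, so p-values measure the spread between these libraries. Same-numbered libraries of both groups deviated from their group means with correlations of -0.124, 0.144, 0.042 and -0.059, so the numbers were not used as pairs.

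Genes were named by rule: Nfe2l1, Psmd1 and all core, base and lid genes; the 12 highest and 12 lowest called protein-coding genes whose mean log2 CPM reached 2 and whose groups did not overlap; the 8 on each side outside the lists; the 10 smallest adjusted p per side; up to 5 called genes per list; the 5 smallest adjusted p per interaction; and a few watched genes. Not all of them are described, and a few genes are not reported here. Further list members are given with their values as examples. The members and lists were chosen with earlier results of these data known. Promoters came from RefSeq (GRCm38.p6), and the longest 3′ UTR of each gene from GENCODE M21, matched by gene identifier; no coordinates were converted between builds. Alternatives were DESeq2 1.42.0 (size factors, Wald test), limma-voom 3.58.1, library totals, no filter, a replicate block, only the groups compared, and leaving out each library.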

Additional observations from a re-analysis of the deposited data

Results flagged for a closer look

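In 17 of 246 groups of 4 libraries checked, 1 library lay far from the other 3; chance alone flags about 1 in 20. Library 3 of siNfe2l1 was lowest for Ucp1 (1.664 CPM, the others 2.59 to 2.683), Atf3 (25.4, the others 33.34 to 34.65), Sirpa (92.13, the others 105.2 to 105.4), Gpnmb (275.5, the others 345.2 to 348.2), Adam8 (61.66, the others 82.65 to 84.14) and Cd5l (24.37, the others 40.06 to 42.38). It was highest for Slc7a5 (80.32, the others 68.55 to 69.42). Library 4 of siNfe2l1 was highest for Psma7 (103 CPM, the others 85.79 to 88.02), Psma2 (102.1, the others 92.77 to 93.46), Psmd13 (92.48, the others 80.77 to 82.05) and Ube2s (58.49, the others 49.18 to 49.85). It was also highest for the summed lysosomal genes (11330 CPM, the others 10510 to 10650). Library 2 of siNfe2l1 was lowest for Ngly1 (35.44 CPM) and Ly6a (1016 CPM), and library 1 for Dhcr7 (61.99 CPM). In the scramble group, Psmd14 was lowest in library 1 (87.65 CPM) and Psmf1 highest in library 4 (44.29 CPM).

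The effect of siNfe2l1 differed with cholesterol, by the edgeR interaction test, for 4 of the 120 genes checked, against 0.247% over all genes. Egr3 and Egr2 were among the genes named for their small interaction p. The log2 difference (with cholesterol minus without) was 1.1 for Egr3, 0.75 for Egr2, 0.60 for Tfrc and 0.33 for Islr.

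The effect differed with siAtf3 for 24 of the 120, against 1.93% over all genes. Some of the 120 were named for a small interaction p or a large effect without siAtf3, which enters the difference. The count and the directions below are therefore partly set by that choice. Among genes that were lower without siAtf3, the log2 difference (with siAtf3 minus without) was 0.65 for Nfe2l1, 1.31 for Ccdc152, 0.31 for Prmt5, 1.53 for Ucp1, 1.44 for Cxcl10 and 0.64 for Slc35g1. It was 0.40 for Tmem87a, 0.69 for Nrn1, 0.30 for Cnbp, 0.90 for Pck1, 0.31 for Psmd3, 0.54 for Tfrc and 0.78 for Smoc1. For Slc7a5, Scd1 and Serpinh1 it was 0.45, 0.67 and 0.25. Acly (0.78) and Hmox1 (0.49) were not called without siAtf3. Among genes that were higher without siAtf3 it was -0.32 for Ephx1, -0.33 for Bcl2l1, -0.88 for Trp53inp1, -0.33 for Islr, -0.45 for Nqo1 and -0.56 for Slc40a1.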

How the results depend on the processing

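Under 7 other settings the comparison called 801 to 1305 genes against 1018, and 761 to 972 with each library left out. Proteasome genes called lower numbered 30 to 31 and 29 to 31, macrophage markers called higher 23 to 24 and 20 to 24, and lysosomal genes called higher 9 to 12 and 9 to 11. Of 107 called genes of the text with values under the alternatives (Rpl7a and Zim1 not counted), 84 kept call and direction under all of them and 0 changed direction. Many of these genes were named for a small adjusted p or for groups without overlap, so the count does not speak for all 1018 calls. With the replicate block, 1161 genes were called in the control comparison, and 143 in the interaction with cholesterol (42 without it). Same-numbered libraries were correlated only between scramble and siNfe2l1 under control treatment. Whether the numbers mark a shared origin in the other groups was not tested. That interaction gave 72 genes with no filter on low counts, 344 with the DESeq2 Wald test, 2 with only the groups compared, and 2 to 1337 with 1 library left out. The interaction with siAtf3 gave 557 with the Wald test, 757 with only the groups compared, and 214 to 339 with 1 library left out. With only the groups compared, siNfe2l1 in cholesterol gave 645 calls and on top of siAtf3 2186; leaving out 1 library gave 2153 to 4755 and 559 to 779. The cause of these shifts was not tested.

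Uncalled genes near 0 changed sign. Hmox1 was at 0.001 with library totals and at -0.0522 to 0.0498 with 1 library left out. With 1 library left out, Nfe2l2 was at -0.0365 to 0.0177, Il6 at -0.248 to 0.036, Ccl2 at -0.239 to 0.1403, and Adipoq as low as -0.0036. The longer promoter word TGACTCAGC stood in 0.0% of proteasome genes with a promoter and in 0.5% of all promoters. Depth limits genes below 1 CPM, such as Tnf.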
